A study of Drosophila melanogaster with 4 samples.

Results

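Small nuclear RNA (snRNA) genes encode the short RNAs at the core of the splicing machinery and a few relatives with other tasks. All genes of biotype snRNA in the Ensembl 115 fly annotation were taken, on the arms of chromosomes X, 2, 3 and 4, which gave 32 of 18164 genes. They comprised 5 U1, 6 U2, 3 U4, 7 U5, 3 U6 and 2 7SK genes and 1 each of U4atac, U6atac, U11, U12, U7 and LU. Of the 32, 16 lay on 2L, 10 on 3R, 4 on 3L and 2 on X, and none on 2R or 4.

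Chromatin immunoprecipitation with sequencing (ChIP-seq) was performed on Drosophila melanogaster embryos carrying the protein CG1233 with green fluorescent protein (GFP) fused to its C terminus. All 4 biological replicates came from 1 transgenic line, as whole embryos of both sexes aged 0 to 24 h, so every tissue of the embryo was mixed. Chromatin was sonicated to fragments of 200 to 800 bp. The description field calls the libraries input controls, but the antibody field gives CG1233. Reading the lists as ChIP calls is therefore an assumption. The series has 1 group and no contrast, so the values below are described and not tested.

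The U1, U2, U4, U5 and U6 RNAs form the small nuclear ribonucleoproteins (snRNPs) of the major spliceosome, and U11, U12, U4atac and U6atac serve the minor one. U7 acts in processing the 3′ end of histone messenger RNAs, and 7SK holds the elongation factor P-TEFb in an inactive complex. Fly snRNA promoters carry a proximal sequence element A (PSEA), bound by the SNAPc complex. Genes of the U6, U6atac and 7SK types typically have a TATA box as well and are transcribed by RNA polymerase III, whereas the other spliceosomal genes and U7 are read by RNA polymerase II.

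The promoter element was present at nearly every snRNA gene, whether or not a ChIP summit lay there. The word TTCNCAA, a core of the PSEA, was found within 100 bp upstream of the gene start on the gene's strand in 31 of 32 genes (96.9%). It began between 64 and 55 bases upstream, with a median of -58. Of 18132 other gene starts, 6.53% held the word on either strand in the same window and 0.414% held it on the gene strand beginning in those 10 positions, a range taken from the snRNA genes themselves. The sequences run from 70 bases before to 9 bases after the annotated first base (position 0), 5′ to 3′ on the gene's strand, and come from the RefSeq release 6 genome (dm6). Capitals mark TTCNCAA. The first set pairs genes of RNA polymerase II types that had an optimal peak with copies of the same RNA that had none, U2:34ABc and U1:95Cb.
U2:34ABb, chr2L:13215769-13215848, plus strand: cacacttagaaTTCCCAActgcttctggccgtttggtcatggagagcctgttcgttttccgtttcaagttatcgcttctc
U2:34ABc, chr2L:13244552-13244631, minus strand: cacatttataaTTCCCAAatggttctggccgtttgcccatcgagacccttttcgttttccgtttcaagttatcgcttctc
U1:95Ca, chr3R:23859621-23859700, minus strand: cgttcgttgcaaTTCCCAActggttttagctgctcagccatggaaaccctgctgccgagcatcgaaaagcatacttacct
U1:95Cb, chr3R:23827800-23827879, plus strand: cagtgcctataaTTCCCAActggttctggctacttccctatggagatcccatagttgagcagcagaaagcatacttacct
U4:39B, chr2L:21215169-21215248, minus strand: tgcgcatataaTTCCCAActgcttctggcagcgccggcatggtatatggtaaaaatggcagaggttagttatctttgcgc
U5:63BC, chr3L:3090731-3090810, plus strand: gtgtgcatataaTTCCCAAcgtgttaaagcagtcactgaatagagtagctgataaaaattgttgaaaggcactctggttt
The U2:34ABb and U2:34ABc genes encode identical RNAs, as do U1:95Ca and U1:95Cb, and all 4 carried TTCCCAA. The word therefore did not separate the copies with an optimal peak from those without.

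The second set shows the RNA polymerase III types, in which capitals also mark the TATA words TATAAA and TATATA. Overlapping matches of TATATA are joined.
U6:96Aa, chr3R:24556018-24556097, plus strand: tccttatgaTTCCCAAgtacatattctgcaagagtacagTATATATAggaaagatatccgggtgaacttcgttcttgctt
U6:96Ab, chr3R:24556622-24556701, plus strand: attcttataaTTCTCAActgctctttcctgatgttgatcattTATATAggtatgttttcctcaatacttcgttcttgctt
U6:96Ac, chr3R:24557145-24557224, plus strand: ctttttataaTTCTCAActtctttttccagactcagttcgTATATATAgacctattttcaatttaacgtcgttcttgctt
U6atac, chr2L:8389654-8389733, plus strand: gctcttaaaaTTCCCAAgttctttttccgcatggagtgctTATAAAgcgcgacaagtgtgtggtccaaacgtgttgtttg
7SKa, chr3R:7474987-7475066, minus strand: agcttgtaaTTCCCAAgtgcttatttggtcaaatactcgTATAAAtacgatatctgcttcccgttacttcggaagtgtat
7SKb, chr3R:23432799-23432878, plus strand: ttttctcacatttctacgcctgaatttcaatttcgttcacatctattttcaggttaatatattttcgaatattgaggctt
TATAAA lay 31 bases upstream at 7SKa and 30 bases upstream at U6atac, and TATATA began 31, 28 and 30 bases upstream at U6:96Aa, U6:96Ab and U6:96Ac. The word TATATA was added after the sequences had been seen. Between 40 and 20 bases upstream on the gene strand, TATAAA began at 6.59% and TATATA at 3.11% of the other gene starts. On either strand of the 100 bp window the other starts held them at 19.0% and 8.65%, and the snRNA genes at 15.6% and 9.38%. The gene without TTCNCAA was 7SKb, which also held neither TATA word on its strand. Its annotated sequence is 48.9% identical to that of 7SKa, and it overlaps CG4374. At the open position of the word, 26 genes read TTCCCAA and 5 read TTCTCAA, and the base just before the word was A in all 31. Among the 7 genes with an optimal peak, 5 read TTCCCAA and 2 TTCTCAA, and among the 24 others with the word the counts were 21 and 3.

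The authors' optimal list, made with the irreproducible discovery rate procedure, held 5211 peaks. These were the 5211 strongest calls of the pooled list, which, like each replicate list, held 30000 calls and included weak background. A rank is the place of a call in its own list by the caller's score, with 1 the strongest. Calls with −log10 q above 2 numbered 6336 in the pooled list and 6697, 4575, 10424 and 5400 in replicates 1 to 4. No list gives read counts, so depth is unknown.

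A summit of the optimal list lay within 500 bp of the start of 7 of 32 snRNA genes (21.9%, 95% exact Clopper-Pearson interval 9.28 to 40.0%). Across all genes of the 6 arms the same rule, applied to any start of a gene, called 3075 of 18164 (16.9%), and across protein-coding genes 2779 of 13945 (19.9%). The share of snRNA genes was near both backgrounds and its interval held them. The 7 genes were U2:34ABb, U6:96Ab, U6:96Ac, U5:63BC, U4:39B, 7SKa and U1:95Ca. They carried 7 distinct summits, since U2:34ABb had a pair of them, in overlapping peaks, and U6:96Ab and U6:96Ac shared 1. Every multi-copy type was represented, with 1 of 5 U1, 1 of 6 U2, 1 of 3 U4, 1 of 7 U5, 2 of 3 U6 and 1 of 2 7SK genes. None of the 6 types with a single gene had an optimal summit, a count of 0 that allows a share of up to 50.0%. Sorted by polymerase, a split made after the values had been seen, 3 of 6 genes of the U6, U6atac and 7SK types, 7SKb included, and 4 of 25 genes of the polymerase II types were called. LU was placed in neither class.

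**Figure D1:**
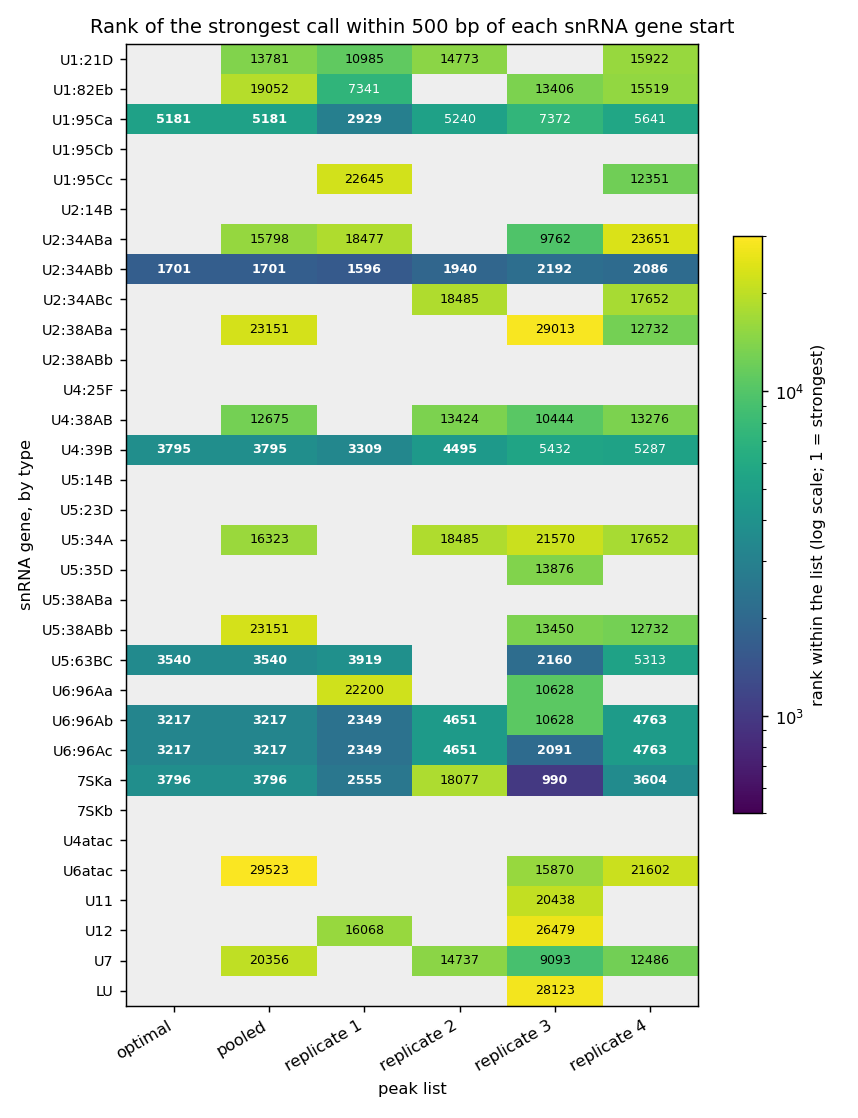
Rank of the strongest call within 500 bp of each snRNA gene start in the optimal, pooled and 4 replicate lists, on a log colour scale with 1 the strongest, bold for the 5211 strongest of a list and grey for no call. The 7 genes with an optimal summit ranked from 1701 to 5181, and U2:34ABb stayed between 1596 and 2192 in the replicates.

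All 7 summits lay away from protein-coding starts. None had a protein-coding transcription start site (TSS) within 500 bp, nor the start of a gene of any other biotype. The closest was that of kek4, 539 bp from the stronger U2:34ABb summit. At the level of the genes, 29 snRNA genes had no protein-coding TSS within 500 bp of their own start and 6 of them (20.7%, exact interval 7.99 to 39.7%) had an optimal summit. The 3 with such a neighbour were U2:34ABa, U2:34ABb and U6atac, of which U2:34ABb was called. Among 3533 noncoding genes of other biotypes without a protein-coding TSS within 500 bp, 185 (5.24%) had an optimal summit, below the lower bound for snRNA genes. The 6 snRNA genes rest on 5 summits, and neighbouring copies are not independent, which the interval leaves out.

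By biotype, and again without such a neighbour, 13 of 240 small nucleolar RNA genes (5.42%), 11 of 258 transfer RNA genes (4.26%), 158 of 2714 ncRNA genes (5.82%) and 1276 of 9731 protein-coding genes (13.1%) were called. With a neighbour the shares were 41.4% for snoRNA, 25% for tRNA and 14.3% for ncRNA genes. Of the genes called, 10 of 25 snoRNA, 9 of 19 tRNA and 136 of 236 ncRNA genes had an optimal summit free of a protein-coding TSS, against all 7 called snRNA genes. In single replicates, the 5211 strongest calls marked 20.7% of the 29 snRNA genes in replicate 1 and 10.3% in each of replicates 2, 3 and 4, with a mean of 12.9% ± 5.17 (SD, n = 4). The other noncoding genes were marked at 6.14, 4.87, 6.57 and 5.38%, with a mean of 5.74% ± 0.761 (SD, n = 4). The snRNA share was higher within each of the 4 replicates, where 10.3% stands for 3 genes. In replicates 1, 2 and 4, U6:96Ab and U6:96Ac counted as separate genes on 1 shared call. No interval was computed for the single replicates, so counting error is not shown for these shares. All replicates shared 1 control alignment set, and the genes were not matched for their transcription.

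**Figure D2:**
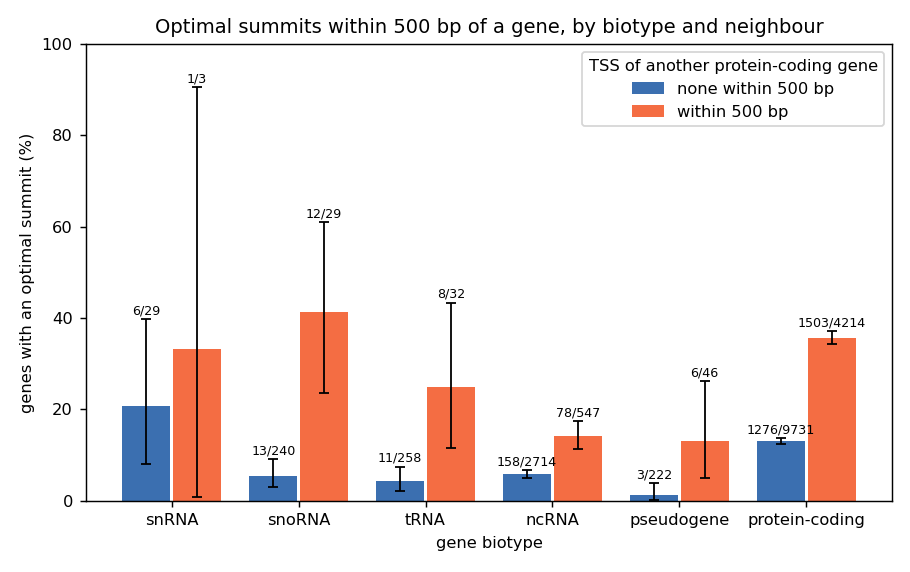
Percent of genes with an optimal summit within 500 bp of a start, by biotype and by whether another gene's protein-coding start lies within 500 bp, with 95% exact intervals. Without such a neighbour, snRNA genes stood at 20.7% (7.99 to 39.7%) and snoRNA genes at 5.42%.

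U2:34ABb (FBgn0004192, 2L, 13215839 to 13216030, plus strand) had the strongest call. U2 RNA pairs with the branch point of introns. Its optimal peaks spanned 13215677 to 13216100, with rank 1701 and −log10 q of 3.77, and 13215880 to 13216303, with rank 3768 and −log10 q of 3.40. The stronger summit lay 50 bp downstream of the gene start, inside the gene, and the other 253 bp downstream. In replicates 1 to 4 the best call ranked 1596, 1940, 2192 and 2086, with summits 30, 75, 37 and 40 bp downstream. The weaker call ranked 4242, 5110, 4214 and 5042. The replicates were thus close in both rank and position at this gene. The weaker peak overlapped the stronger one in every list, and whether the pair marks separate sites was not tested.

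U6:96Ab and U6:96Ac (FBgn0004189 and FBgn0004190, 3R, plus strand) shared the optimal peak from 24556891 to 24557314, with rank 3217 and −log10 q of 3.33. U6 RNA is part of the catalytic core of the spliceosome. The summit lay 112 bp upstream of U6:96Ac and 411 bp downstream of U6:96Ab, between the copies, so it cannot be given to 1 of them by the window alone. In replicates 1, 2 and 4 the same region was called at ranks 2349, 4651 and 4763, with summits at -119, -141 and -133 bp from the U6:96Ac start. Replicate 3 differed, with a call of rank 2091 whose summit lay 94 bp downstream of the U6:96Ac start, inside the gene. Weaker calls also lay inside U6:96Ac, at 90 bp in replicate 1 (rank 8832) and 68 bp in replicate 4 (rank 19959). The pooled list had one at 94 bp (rank 11674). The best call of replicate 3 near U6:96Ab ranked 10628 and lay at -412 bp from that gene, closer to U6:96Aa. The third copy, U6:96Aa, had no pooled call and reached its best rank of 10628 in replicate 3.

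7SKa (FBgn0065099, 3R, 7474553 to 7474996, minus strand) had an optimal peak from 7474558 to 7474981 with rank 3796 and −log10 q of 3.40. Its summit lay 226 bp downstream of the start, within the 444 bp gene. The best calls ranked 2555, 18077, 990 and 3604 in replicates 1 to 4, so replicate 2 stood far below the others. Summit positions ranged from 64 to 223 bp downstream. The rank of 990 in replicate 3 was the strongest of any snRNA gene in a replicate list.

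U5:63BC and U4:39B had calls of middling rank with less even replicates. U5 RNA contacts the exon ends during splicing, and U5:63BC (FBgn0003938, 3L, 3090801 to 3090923, plus strand) had an optimal peak from 3090659 to 3091082, with rank 3540, −log10 q of 3.37 and a summit 70 bp downstream. It ranked 3919 in replicate 1, had no call in replicate 2, and ranked 2160 and 5313 in replicates 3 and 4. The summits of these calls lay at 73, -51 and 77 bp from the start. U4 RNA pairs with U6 until the spliceosome is activated, and U4:39B (FBgn0003930, 2L, 21215036 to 21215178, minus strand) had an optimal peak from 21214941 to 21215364, with rank 3795 and −log10 q of 3.40. Its summit lay 25 bp downstream, and the gene sits inside Atg18b, an autophagy gene on the same strand. The replicate ranks were 3309, 4495, 5432 and 5287, those of replicates 3 and 4 falling just outside the 5211 strongest. The summits of these calls lay at 25, 36, -42 and 79 bp from the start.

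U1:95Ca (FBgn0004185, 3R, 23859467 to 23859630, minus strand) was the weakest member of the optimal list. U1 RNA recognises the 5′ splice site. The peak from 23859394 to 23859817 ranked 5181, with −log10 q of 2.50 and a summit 24 bp downstream, and stood 30 ranks above the end of the list. In replicates 1 to 4 the best call ranked 2929, 5240, 7372 and 5641, so that replicate 1 alone placed it among its 5211 strongest. The summits of these calls lay at 89, 12, -52 and 229 bp from the start, that of replicate 4 beyond the gene. The nearest protein-coding TSS, that of Pli, was 30446 bp from the optimal summit, the farthest of the 7.

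The optimal summits at snRNA genes mostly ranked lower than the median promoter summit and mostly lay downstream of the start. The median rank of the 7 distinct summits was 3768, with a range from 1701 to 5181, against a median of 2398 for all 2424 optimal summits within 500 bp of a TSS. Of the 7, 6 fell below rank 2605, the midpoint of the list. The nearest optimal summit had a median position of 50 bp downstream, with 6 of 7 genes downstream and 5 inside the gene. For all promoter summits the median was -100.5 bp, and 22.3% lay downstream of the nearest TSS. Over the 16 genes with a pooled call the median was 53 bp, with 14 downstream and 11 inside the gene. Medians over all calls of a replicate were 73, 75, 4 and 78 bp in replicates 1 to 4, with replicate 3 nearest to the start. In replicate 3 the nearest summit lay downstream at only 10 of 20 genes and inside the gene at 6. In replicates 1, 2 and 4 it lay downstream at 10 of 13, 8 of 11 and 14 of 18 genes. Measured from the first base of TTCNCAA, the optimal summit lay 82 bases downstream at U1:95Ca, 84 at U4:39B, 109 at U2:34ABb, 128 at U5:63BC and 287 at 7SKa. The shared U6 summit lay 471 bases downstream of the word of U6:96Ab and at -52 bases from that of U6:96Ac, upstream of it. Peaks had a median width of 424 bp. The optimal peaks at U1:95Ca, U4:39B and U5:63BC and the stronger one at U2:34ABb covered the whole gene, whereas those at 7SKa and the U6 pair and the weaker one at U2:34ABb did not.

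**Figure D3:**
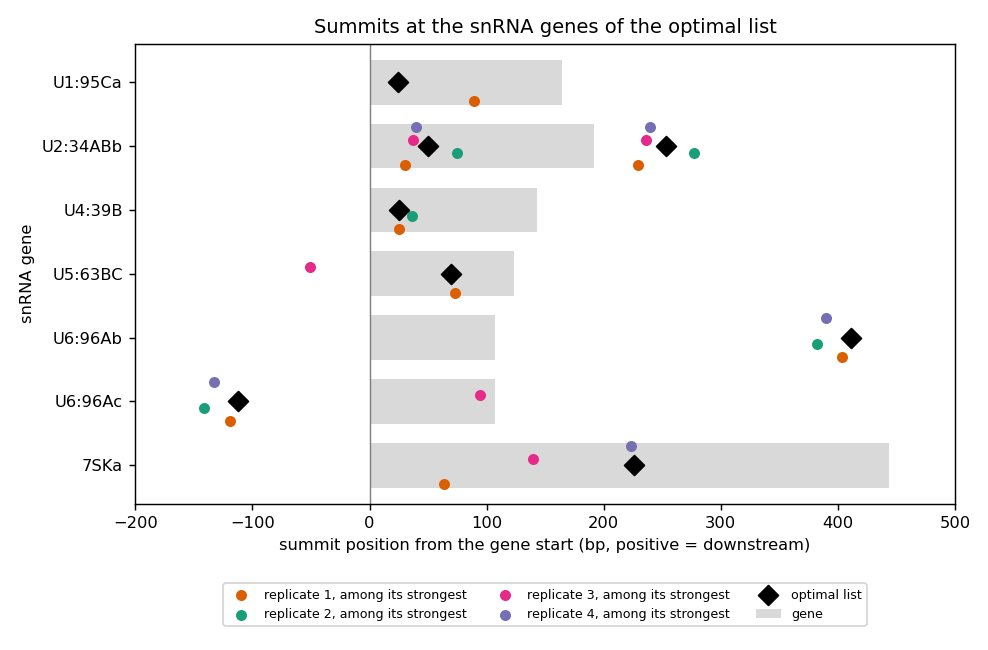
Summit position in bp from the gene start, negative upstream, at the 7 snRNA genes with an optimal summit, with diamonds for the optimal list, dots for calls among the 5211 strongest of each replicate, and grey bars for the genes. The optimal summits lay from -112 bp at U6:96Ac to 411 bp at U6:96Ab, which share 1 summit, and the replicates of U2:34ABb clustered at both of its summits.

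In the replicate lists, 7 snRNA genes were marked by at least 1 replicate's 5211 strongest calls, and these were the same 7 genes as in the optimal list. Replicate 1 marked 7 genes and replicates 2, 3 and 4 marked 4 each, a mean of 4.75 ± 1.5 (SD, n = 4), or 14.8% ± 4.69 of the 32. All genes were marked at 17.1, 16.2, 17.5 and 16.8% in replicates 1 to 4, so the snRNA share was above that background in replicate 1 and below it in the others. Only U2:34ABb and U6:96Ac were marked by all 4 replicates. U6:96Ab and 7SKa were marked by 3 replicates, U4:39B and U5:63BC by 2, and U1:95Ca by 1. The optimal list rests on the same alignments, so the overlap is partly built in.

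Weaker calls reached more snRNA genes, in the pooled list at a share near that of all genes. Any pooled call lay within 500 bp of 16 of 32 (50.0%, exact interval 31.9 to 68.1%), against 43.6% of all genes. Any call of replicates 1 to 4 lay at 13, 11, 20 and 18 genes, a mean of 15.5 ± 4.20 (SD, n = 4), and replicate 3 was highest. These were 40.6, 34.4, 62.5 and 56.25% of the 32, beside 46.9, 40.7, 47.6 and 40.4% of all genes. The snRNA share was below that background in replicates 1 and 2 and above it in replicates 3 and 4. Among genes without a protein-coding TSS within 500 bp, 13 of 29 snRNA genes and 26.2% of the 3533 other noncoding genes had a pooled call. The 9 snRNA genes with a pooled call only ranked between 12675 (U4:38AB) and 29523 (U6atac). At 14 of the 16 the call had no protein-coding TSS within 500 bp. The exceptions were U2:34ABa, whose summit lay 69 bp from the start of CG15482, and U6atac, 437 bp from that of CG42819. Near U5:35D, replicate 3 had a call of rank 13989 whose summit lay 287 bp from the start of Mtr4, which encodes an RNA helicase of the nuclear exosome pathway, and a call of rank 23503 whose summit lay 104 bp from that of ND-B17. Its best call there, of rank 13876, had no protein-coding TSS within 500 bp.

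The remaining genes gave little or nothing. Of the 16 without a pooled call, 9 had no call in any list, namely U1:95Cb, U2:14B, U2:38ABb, U4:25F, U5:14B, U5:23D, U5:38ABa, U4atac and 7SKb. Of the minor spliceosome RNAs, U11 and U12 had replicate calls no stronger than rank 16068, and U6atac reached 15870 in replicate 3. U7 had calls in replicates 2, 3 and 4 at ranks 14737, 9093 and 12486. LU was called in replicate 3 at rank 28123 only. The 38AB cluster, 5 snRNA genes of the U2, U4 and U5 types inside the gene sick, had no optimal summit within 500 bp of a start. A pooled call lay at 3 of the 5, and U2:38ABa and U5:38ABb shared the one of rank 23151. The strongest call of the cluster in any replicate list ranked 10444, at U4:38AB.

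Near-identical copies limit what these lists can show. The U1 genes are 98.2 to 100% identical and the U2 genes 98.4 to 100%, and all 3 U6 genes have the same 107 bp sequence. Identity ranged from 73.8 to 94.4% among U4 and from 78.5 to 96.1% among U5 genes. The sources used here give neither read length nor the treatment of reads that match several places. As a guide, the share of 36-base words within 500 bp of the start that occur once in the genome was computed. It was lowest at U2:38ABa (46.2%), U2:34ABc (48.1%) and U2:38ABb (49.7%), and 81.6% at U2:34ABb. The median was 91.6% over genes with an optimal summit (81.6 to 100%), 85.7% over those with a pooled call only (46.2 to 100%) and 93.8% over those without a pooled call (48.1 to 100%). Inside the genes themselves no such word was unique at U2:34ABb, U1:95Ca or the U6 copies. The contrast between U2:34ABb and its identical copy U2:34ABc therefore coincided with unequal uniqueness, whereas U1:95Ca (85.3%) and U1:95Cb (84.5%) were alike in it. The part of uniqueness in these calls was not tested.

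**Figure D4:**
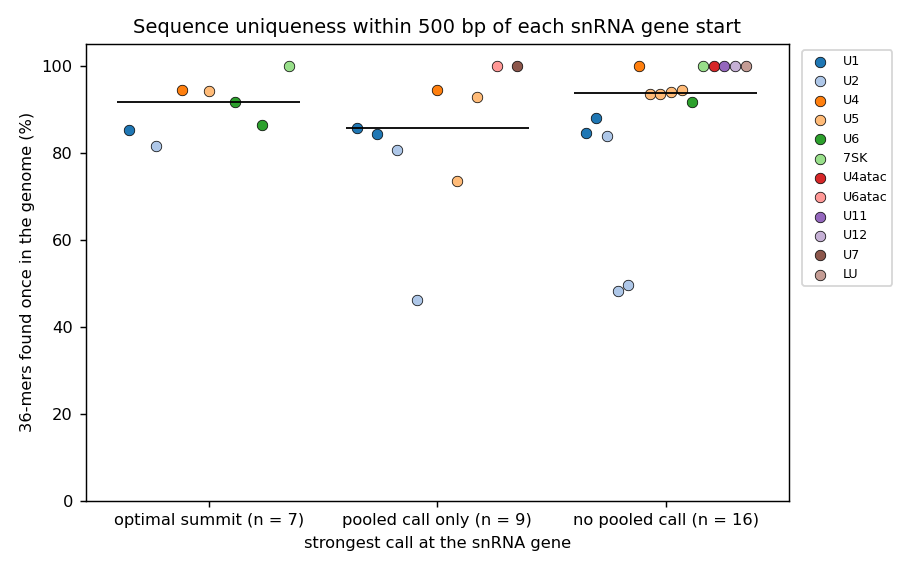
Percent of 36-base words within 500 bp of each snRNA gene start that occur once in the genome, for genes with an optimal summit, a pooled call only or no pooled call. Group medians were 91.6, 85.7 and 93.8%, and the lowest values belonged to U2 genes.

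Genes whose proteins mostly make, transcribe or carry snRNAs were examined as the wider pathway. Of 69 matched genes, 24 (34.8%) had an optimal summit within 500 bp of a TSS, beside 19.9% of protein-coding genes. The protein-coding share was 13.1% without and 35.7% with another protein-coding TSS within 500 bp. The pathway genes were not split in this way, so the part of neighbours in their share was not tested. A summit can serve a neighbouring gene as well, so these are summits near the genes, not assignments to them. The Sm and LSm ring proteins, a list not limited to rings on snRNAs, had 3 of 12, at SmD3 (rank 3739), LSm1 (4207) and LSm7 (3896). Proteins particular to single snRNPs had 6 of 17, at snRNP-U1-C (rank 1096), Sf3b6 (1387), Prp31 (1912), Sf3b1 (3381), U4-U6-60K (3732) and Sf3b3 (4058). Among SNAPc and general factors it was 2 of 7, at Brf (rank 258), a subunit of the polymerase III factor TFIIIB, and TfIIB (1782). None of the SNAPc genes Pbp45, Pbp49 and Pbp95 had one.

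Integrator, which cleaves the 3′ ends of polymerase II snRNAs, had 4 of 14, at IntS6 (rank 616), IntS11 (895), the catalytic subunit, IntS9 (2200) and IntS10 (3361). The little and super elongation complexes had 3 of 5, at lilli (rank 3013), ear (3060) and Su(Tpl) (3826), whereas Ice1 and Ice2 had none. Assembly, capping and export genes had 5 of 12, at Cbp20 (rank 1717), Ars2 (2637), Smn (3700), coil (4335) and Phax (4665). Of the 7SK snRNP, bin3 (rank 207) had one and Larp7 did not. Besides bin3 and Brf, IntS6, IntS11, snRNP-U1-C and Sf3b6 had summits ranked above the strongest at an snRNA gene, 1701.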

How the data were processed

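TF ChIP-seq of CG1233-GFP fly embryos was analysed in 4 replicates of 1 group. Per the text files that accompany the deposited lists, the calls are on dm6, replicates were called against 1 shared control, and the pooled and optimal lists combine all 4. The sources used here do not name aligner, caller, versions or read length. Each deposited call carries a signal value, the caller's score, used for ranks within a list. Its q-value is deposited as −log10 q. Depth is unknown, and the number of columns mapped to no sample was 0.

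Genes were the Ensembl 115 annotation on 6 arms, and sequences the RefSeq release 6 genome. No call ended beyond its arm. A gene was called when a summit lay within 500 bp of a start; for snRNA genes this is the only annotated start. A replicate marked a gene with its 5211 strongest calls, and held an optimal peak when such a call had its summit inside it. Intervals are 95% exact Clopper-Pearson, zero limits use 3 counts, and both cover counting error only. Identity used global alignment (Biopython 1.88). Python 3.11.15, pandas 2.3.3, scipy 1.17.1 and matplotlib 3.10.9 were used, and the assignment of summits was tested on simulated data.

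The snRNA genes and pathway lists were chosen with earlier results of these data known. Genes with an optimal summit, or marked by a replicate, are given in full, and others by counts and ranges. Protein-coding genes near their summits and pathway genes with an optimal summit are named. Of 79 pathway symbols, 67 matched by symbol and 7 by synonym, 5 did not match 1 gene, and repeats left 69 genes. Alternatives were windows of 200 and 1000 bp, stricter lists, each replicate left out and peak overlap. The word TATATA, the polymerase split and the gene-overlap split were added after seeing the data.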

Additional observations from a re-analysis of the deposited data

Results flagged for a closer look

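In 5 of 20 series of 4 replicate values tested, 1 replicate stood far from the other 3. The cutoff flags about 1 in 20 by chance only for continuous, normally distributed values. Tied counts, ranks and best-call positions are not of that kind, so the chance rate here is unknown. The 5 are not independent. The 5211 strongest calls marked 7 snRNA genes in replicate 1 and 4 in each of the others, and the same contrast in percent was 21.9% against 12.5%. At 7SKa, replicate 2 had its best call at rank 18077, while the others ranked 2555, 990 and 3604. At the U6 pair, replicate 3 had its best summit at -412 bp from the U6:96Ab start, against 382 to 404 bp in the others. At U6:96Ac the best summit of replicate 3 lay at 94 bp, against positions from -141 to -119 bp. Replicates 1 and 4 also had weaker calls at 90 and 68 bp. No label separates these replicates, and the cause was not tested.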

How the results depend on the processing

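Of 52 alternative values, 25 stayed within the limit set for them (1.5 times for counts) and 27 did not. Windows of 200 and 1000 bp gave 5 and 9 snRNA genes with an optimal summit, and any overlap of the peak gave 7. The 1000 bp window added U11 and U5:38ABb. The 2605 strongest optimal peaks left 1 gene, U2:34ABb, with 1 distinct summit, free of protein-coding starts. Peaks held by all 4 replicates left 3 genes, U2:34ABb, U6:96Ab and U6:96Ac, all 3 free of such starts, with 3 distinct summits, and 6 pathway genes of 24. Replicate 3 held the U6 peak by a summit at 24557309, close to the peak end at 24557314. That summit was not within 500 bp of the U6:96Ab start, so only 3 replicates marked U6:96Ab. Requiring all replicates but 1, each left out in turn, gave 3 to 4 genes, free genes and summits, and 7 to 10 pathway genes; without replicate 2, 7SKa was added. These rules are stricter by construction, since they ask for several replicates at once. Pooled calls with −log10 q above 2 lay at 7 genes, not 16. The mean number of genes marked per replicate went from 4.75 to 2.5 with 2605 calls per replicate and 15.5 with all calls, and stayed at 4 to 5 with 1 replicate left out. The median summit position of 53 bp became 4 bp in replicate 3. The cause was not tested.

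No paired analysis was possible because the series has 1 group. Read depth, read length and the handling of repeated sequence are unknown, so a missing call at a U1, U2 or U6 copy does not show that CG1233 was absent there. Nor does a call inside U2:34ABb or U1:95Ca, where no 36-base word was unique, tie the signal to that copy alone. With 32 genes, shares carry wide intervals, and copies and neighbours are not independent.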

Other observations

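The snRNA genes also differed in where they sit, a split made after the values had been seen. Of the 32, 16 overlap a protein-coding gene, and 1 of these, U4:39B, had an optimal summit, with 5 at a pooled call. Of the 16 that overlap none, 6 had an optimal summit and 11 a pooled call. These 16 include the 3 snRNA genes with a protein-coding TSS within 500 bp, among them U2:34ABb, which was called. The shares of other noncoding genes leave out genes with such a neighbour, so the sets are not matched. Among other noncoding genes without a protein-coding TSS within 500 bp, 72 of 1566 (4.60%) overlapping a protein-coding gene and 113 of 1967 (5.74%) overlapping none had an optimal summit. Another snRNA gene started within 1000 bp of 11 snRNA genes, of which U6:96Ab and U6:96Ac had an optimal summit.

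The gene CG1233 itself had 0 optimal summits within 500 bp of its start.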
